A study of Mus musculus with 6 samples.

Results

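Low-UMI Müller glia barcodes were selected on measured values in a single-cell RNA series of the mouse retina. A barcode was a member when it had at least 500 detected genes, at most 20% of its unique molecular identifiers (UMIs, counts of single RNA molecules) in mitochondrial genes and fewer than 4000 UMIs. It also had to hold at least 3 of the 7 genes Slc1a3, Rlbp1, Glul, Dkk3, Crym, Dapl1 and Dbi, Glul or Rlbp1 among them, and no UMI of Rpe65, Arr3 or Trpm1, which mark pigment epithelium, cones and ON bipolar cells. The rule found 2150 members among 38995 barcodes that passed the limits on genes and mitochondrial RNA (5.51%) and 47631 deposited ones. They held 4115521 UMIs, from 628 to 3998 each with a median of 1751. The same gene rule at 4000 UMIs or more gave 2543 high-UMI Müller barcodes, which served for comparison.

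In the OIR group, pups were kept in 75% oxygen from P7 to P12 to produce oxygen-induced retinopathy, then in room air for 5 days. The control group stayed in normal air, and both groups were taken at P17. Each group had 3 samples, and each sample held the retinas of 2 mice. The labels give no strain, genotype or sex for them. The labels name retinal endothelial cells as the tissue, whereas 26255 of the kept barcodes under 4000 UMIs held at least 8 of 15 rod genes, so the matrices were read as whole retina.

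Müller glia are the radial glia of the retina and span it from the vitreous to the photoreceptors. They take up glutamate and convert it to glutamine, carry potassium and water out of the neural tissue, and return retinoid to cones. When the retina is injured or ischemic they raise intermediate filament proteins and are a source of angiogenic factors. A barcode with few UMIs can be a small or damaged cell, a fragment of one, or a droplet with RNA from several cells, and a count table alone does not separate these.

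The 6 samples were not alike apart from the treatment. Values are given here in the order of replicates 1, 2 and 3. The median UMI count of all kept barcodes was 4006, 2399 and 2022 in the OIR samples and 4937, 1960 and 1450 in the control samples, highest in both replicate 1 samples. Cell mix differed too. Rod barcodes under 4000 UMIs numbered 3009, 3830 and 5987 of 6161, 5605 and 7523 kept in OIR. In control they were 3005, 4208 and 6216 of 7246, 5426 and 7034. High-UMI Müller barcodes had median UMI counts of 9964, 11808 and 10456 in OIR and 7728, 12213 and 8184 in control, lowest in replicate 1. Control replicates 2 and 3 carried Xist, the RNA of the inactive X chromosome, at 1744 and 2007 counts scaled to a common library total (CPM), and Y-linked RNA at no more than 0.0668 CPM. The other 4 samples had Y-linked RNA at 206 to 257 CPM and Xist at no more than 0.465 CPM. Sex was thus uneven between the groups. Over the 15 pairs of samples 261 barcode sequences were shared, 9 to 34 a pair, and none of them was a member in both samples.

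The name of the class was checked against genes that the rule did not use. Of 19 Müller genes outside the rule (Apoe, Clu, Vim, Car2, Aqp4 and others) Apoe was the most abundant at 25043 UMIs over the members. Of 15 rod genes Sag, the rod arrestin, was the most abundant at 26390 UMIs. The rod list summed to 35667, 30997 and 42104 CPM in the OIR members and 34448, 50179 and 49648 CPM in the control members. The 19 Müller genes summed to 20873, 23232 and 15728 CPM and to 26202, 19016 and 17975 CPM, lower in every sample. The 7 rule genes are not in that sum, because they chose the members. They held a further 15102, 19835 and 15761 CPM in the OIR and 16654, 16942 and 16999 CPM in the control members. The order of the 2 lists, and the rod-dominated shares below, depend on leaving them out. The members were divided on this point, since 1015 of the 2150 (47.2%) held more UMIs of the rod list than of the Müller list. In 541 members (25.2%) more than 90% of the UMIs of both lists came from rod genes, and 298 (13.9%) lay between 40% and 60%. In bins of 0.05 of this rod share, members numbered 148 at 0.2 to 0.25, 48 to 54 in each bin from 0.55 to 0.8 and 401 in the last bin, so they gathered on both sides with a thinner stretch between, and the division at equal numbers is a choice. In the high-UMI class the rod-dominated share was 26.7%. On these lists the label therefore holds for part of the members only, and 1665 of all members also met the rod criterion of 8 of 15 genes.

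**Figure D1:**
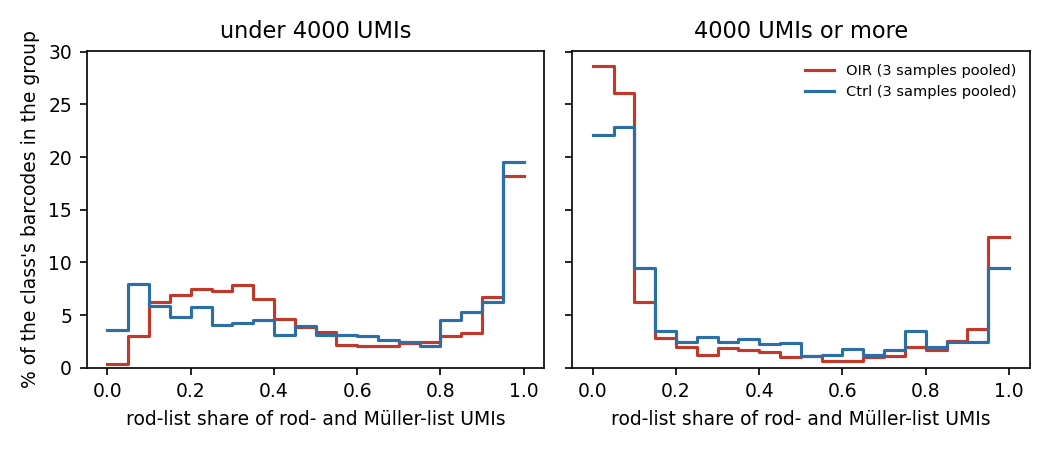
Share of rod-list UMIs among rod-list and Müller-list UMIs (x axis, from 0 to 1) for Müller glia barcodes under 4000 UMIs (left) and at 4000 UMIs or more (right). The y axis gives the percent of the class's barcodes per bin of 0.05, with the 3 samples of each group pooled. The low-UMI class is spread over the whole axis with a peak at the rod end (47.2% rod-dominated), and most of the high-UMI class lies at the Müller end (26.7% rod-dominated).

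The genes of the rule were also found in barcodes with markers of other cell types under the same UMI limit. Glul, the glutamine synthetase of Müller glia, was detected in 19.3% of the rod barcodes, 27.9% of 433 bipolar barcodes and 42.6% of 291 microglia barcodes. In the members, where the rule asks for Glul or Rlbp1, it was in 95.1% by selection. Median UMI counts were 1751 in members and 1750, 2492 and 1654 in those types. At least 3 of the 7 genes with Glul or Rlbp1 were found in 7.15% of the rod barcodes, 6.93% of the bipolar and 8.25% of the microglia barcodes. These were not separate sets, since 1665 rod barcodes and 23 microglia barcodes were members. Among rod barcodes the share was 12.8%, 8.36% and 8.43% in the OIR samples and 14.1%, 2.95% and 1.90% in the control samples. It was highest in both replicate 1 samples and lowest in control replicates 2 and 3, which also had the lowest shares of members described further on. The part of free or shared RNA in that share was not tested, since no deposited barcode had under 500 UMIs.

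The number of rule genes in a member went with its rod RNA. The 428 members with 3 of the 7 genes held a median of 4 UMIs of these genes, had 7.32% of their summed UMIs in rod genes, and 88.1% of them were rod-dominated. The 427 members with all 7 genes held a median of 59 such UMIs and 1.44% rod RNA, and 14.1% were rod-dominated. By UMI count, in bins 1000 UMIs wide, the pooled rod-dominated share lay between 42.0% and 54.0%, but samples differed more widely. Under 1000 UMIs it was 60.3%, 43.4% and 54.4% in the OIR samples and 73.3%, 28.0% and 34.5% in the control samples. Values ran on across the borders of the class. The 145 members within 500 UMIs below the limit had 6.83% mitochondrial and 5.33% rod RNA against 7.01% and 5.45% in the 126 high-UMI Müller barcodes within 500 above it. The 173 members within 50 genes above the minimum had 3.03% rod RNA, and 204 barcodes within 50 genes below it had 2.72%. The 83 members within 2 percentage points under the mitochondrial limit had 1.68% rod RNA, and 76 barcodes within 2 points over it had 2.42%. Barcodes with 2 rule genes, 1280 in number, had 8.47% rod RNA.

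Members made up a larger share of the kept barcodes in every OIR sample than in any control sample. The share was 5.91%, 7.73% and 8.27% in the OIR samples, and 5.11%, 3.43% and 2.49% in the control samples. The Wilson 95% intervals of the closest samples, OIR replicate 1 (5.35% to 6.52%) and control replicate 1 (4.62% to 5.64%), overlapped. The means were 7.30% ± 1.24 (SD, n = 3) and 3.67% ± 1.33 (SD, n = 3), a difference of 3.63 percentage points (two-sided exact permutation p = 0.1, the smallest that 3 samples against 3 allow). Müller-dominated members alone were 3.46%, 4.89% and 3.75% of the kept barcodes in the OIR group and 2.58%, 1.66% and 1.04% in the control group, again without overlap. After every barcode was thinned to 1000 UMIs, the shares were 4.38%, 5.74% and 5.49% against 4.36%, 2.46% and 1.83%, with OIR replicate 1 and control replicate 1 nearly equal. This left out 291, 657 and 874 shallower barcodes in OIR and 324, 253 and 761 in control.

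The denominator changed that order. Among kept barcodes under 4000 UMIs, members were 11.8%, 10.7% and 9.98% in the OIR samples and 11.8%, 4.24% and 2.75% in the control samples. Here control replicate 1 stood within the OIR range (p = 0.3, exact permutation test). At each replicate number the OIR sample was the higher, narrowly so at replicate 1 (11.84% against 11.81%). Of all barcodes that met the gene rule at any depth, 33.8%, 53.5% and 64.1% were under 4000 UMIs in the OIR group and 35.9%, 41.4% and 49.3% in the control group, and the groups overlapped (p = 0.5, exact permutation test). The difference of 8.21 percentage points was 1.40 without OIR replicate 3 and 16.5 without OIR replicate 1. The replicate 1 samples, with the highest median UMI count over kept barcodes, had the lowest such share in both groups. All barcodes that met the gene rule, at any depth, were 17.5%, 14.5% and 12.9% of the kept barcodes in the OIR samples. In the control samples they were 14.2%, 8.27% and 5.05%, and the groups overlapped. Rod RNA made up 3.57%, 3.10% and 4.21% of the members' summed UMIs in the OIR group and 3.44%, 5.02% and 4.96% in the control group (3.63% ± 0.558 against 4.48% ± 0.893, SD, n = 3, p = 0.3, exact permutation test), and the groups overlapped. Without control replicate 1 the difference went from -0.85 to -1.37 percentage points without overlap (exact permutation p = 0.2, the smallest for 3 against 2).

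**Figure D2:**
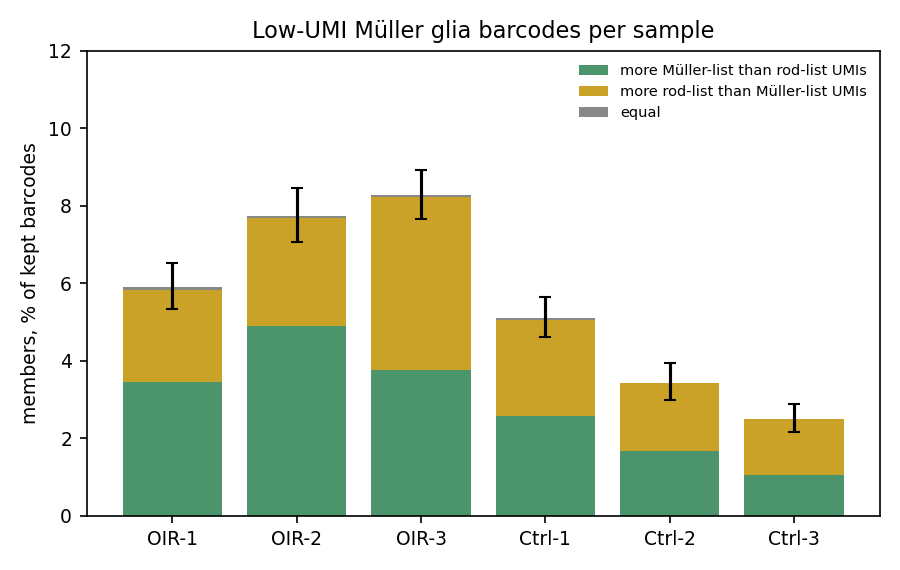
Members as a percent of kept barcodes (y axis) in each of the 6 samples (x axis), with stacked parts for members with more Müller-list UMIs, more rod-list UMIs and equal numbers, and error bars for the Wilson 95% interval of the total, which covers counting error only. The 3 OIR samples lie between 5.91% and 8.27% and the 3 control samples between 2.49% and 5.11%.

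Mitochondrial RNA was higher in the low-UMI than in the high-UMI class in 6 of 6 samples. The median over members was 9.47%, 5.62% and 4.65% of UMIs in the OIR samples and 11.3%, 6.41% and 6.96% in the control samples. In the high-UMI class it was 6.52%, 4.01% and 3.31% and then 7.12%, 4.87% and 4.67%. Both replicate 1 samples were highest in either class. Between the groups the members' medians overlapped (6.58% ± 2.55 against 8.22% ± 2.68, SD, n = 3, p = 0.5, exact permutation test). Replicate 1 samples were high in both groups, and at each replicate number the OIR sample was the lower. In replicates 2 and 3 alone the means were 5.13% and 6.69% without overlap (exact permutation p = 0.333, the smallest for 2 against 2). Without control replicate 1 the difference went from -1.64 to -0.11 percentage points. Within the members, mitochondrial RNA went with the Müller side, since Müller-dominated members had medians of 10.6%, 7.16% and 5.80% in the OIR group and 10.9%, 7.89% and 9.08% in the control group. Rod-dominated members had 5.72%, 3.38% and 3.35% and 11.8%, 4.98% and 5.25%, so the order held in 5 of 6 samples and was turned in control replicate 1.

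**Figure D3:**
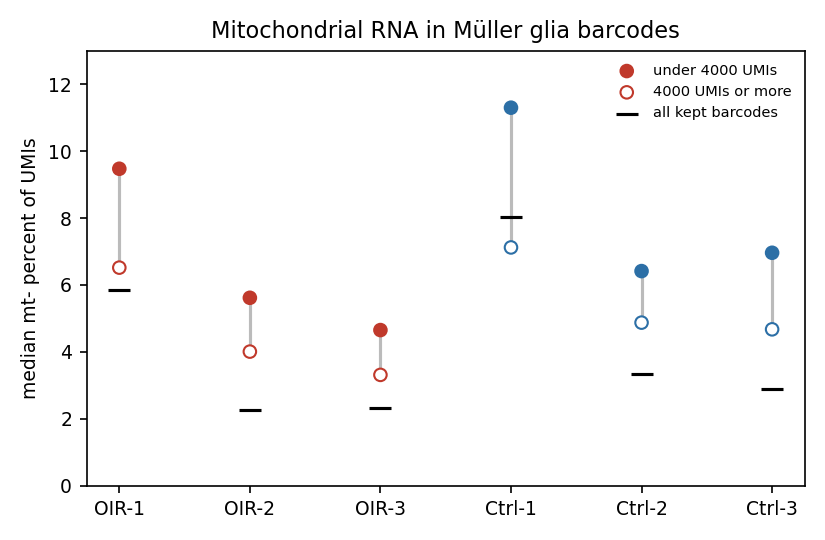
Median percent of UMIs in mitochondrial genes (y axis) per sample (x axis), for Müller glia barcodes under 4000 UMIs (filled circles), at 4000 UMIs or more (open circles) and for all kept barcodes (dashes), with OIR samples in red and control samples in blue. The filled circle is above the open one in all 6 samples, and both replicate 1 samples stand highest.

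At equal depth the median member held more different genes in every OIR sample than in any control sample. With each member thinned to 1000 UMIs, the median number of detected genes was 642, 666.5 and 673 in the OIR samples and 625, 620.0 and 624.5 in the control samples. The groups did not overlap, at 660.5 ± 16.3 against 623 ± 2.75 (SD, n = 3). This is a description without a test, because the rule itself asks for at least 500 detected genes. Malat1 averaged 33126 CPM in OIR and 54879 CPM in control members. Mitochondrial genes averaged 7.25% and 8.39% of the summed UMIs, where the groups overlapped. The part of these RNAs in the difference was not tested. Members under 1000 UMIs, 58, 99 and 136 in OIR and 45, 25 and 29 in control, were left out. The samples' median UMI counts before thinning, 1777 ± 328 in OIR and 1793 ± 213 in control (SD, n = 3), overlapped.

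Set beside the high-UMI class of the same sample, members held more photoreceptor RNA and less RNA of immediate early genes. This comparison is a description without a test, because the UMI count chose the class. Among 873 genes with at least 50 UMIs in both classes of every sample, 273 were higher and 127 lower in the members in 6 of 6 samples. The 8 with the highest median log2 ratio of CPM were Mir124a-1hg (2.44), Ttr (2.35), Rpgrip1 (2.12), Samd11 (1.97), Rp1 (1.88), Pex5l (1.80), Rdh12 (1.79) and March1 (1.79). Rpgrip1, Rp1 and Rdh12 serve the outer segments and the visual cycle of photoreceptors, and Ttr, the retinoid and thyroxine carrier transthyretin, is abundant in pigment epithelium. The summed rod list was higher in the members in 6 of 6 samples, by log2 ratios of 0.19 to 2.50.

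The genes lowest in the members relative to the high-UMI class were led by 2 subunits of the AP-1 transcription factor, Fos and Jun, with median log2 ratios of -2.47 each. They were followed by Junb (-2.07), Btg2 (-1.80), Ier2 (-1.78), Hes1 (-1.62), Id1 (-1.32) and Tgfb2 (-1.21). Fos stood at 382, 291 and 403 CPM in OIR members and 912, 413 and 533 CPM in control members, against 1825 to 3312 CPM in the high-UMI class. The members were lower in every sample, and the gap was smallest in control replicate 1 (log2 ratio -1.25). The immediate early list as a whole was lower by a median log2 ratio of 1.06 and the mitochondrial genes were higher by 0.54, both in 6 of 6 samples. Ribosomal protein genes were higher by 0.42, also in 6 of 6.

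The 7 genes of the rule, given as levels without a test, were mostly alike in the groups, with Crym apart. Slc1a3, the glial glutamate transporter, stood at 435, 425 and 415 CPM in OIR and 407, 442 and 416 CPM in control members. Rlbp1, the retinoid carrier of Müller glia, stood at 2358, 2705 and 2463 CPM and at 2219, 2678 and 2664 CPM. Both thus overlapped within a narrow range. Glul was 2925, 5369 and 3335 CPM in the OIR group and 6262, 5607 and 5106 CPM in the control group, with OIR replicate 2 inside the control range. Crym, a thyroid hormone binding protein, was 2291, 2562 and 2306 CPM against 943, 1142 and 1492 CPM, with every OIR sample above every control sample. Dbi, Dapl1 and Dkk3 overlapped between the groups.

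The members of each sample were then summed, and edgeR's quasi-likelihood test set the 3 OIR against the 3 control sums. The sums held 300255 to 1094524 UMIs. Of 8100 genes tested, 24 were higher in OIR (0.296%) and 22 lower (0.272%), together 0.568%. A call needed 0.25 or more in absolute log2 fold change and p under 0.05 after Benjamini-Hochberg adjustment, and 676 genes had an unadjusted p under 0.05. The count rested on single samples. It was 22, 6 and 27 without OIR replicates 1, 2 and 3 and 104, 8 and 18 without control replicates 1, 2 and 3. It was 164 with sex as a covariate (50 higher and 114 lower) and 107 with a replicate block (50 higher and 57 lower). In replicates 2 and 3 alone it was 144 (67 higher and 77 lower). Of the 46 genes, 6 kept their call without OIR replicate 2 and 7 without control replicate 2, while 4 kept it in every alternative that tested them, Id3 and Ndufa4l2 in 18, Fam159b in 17 and BC055402 in 16.

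**Figure D4:**
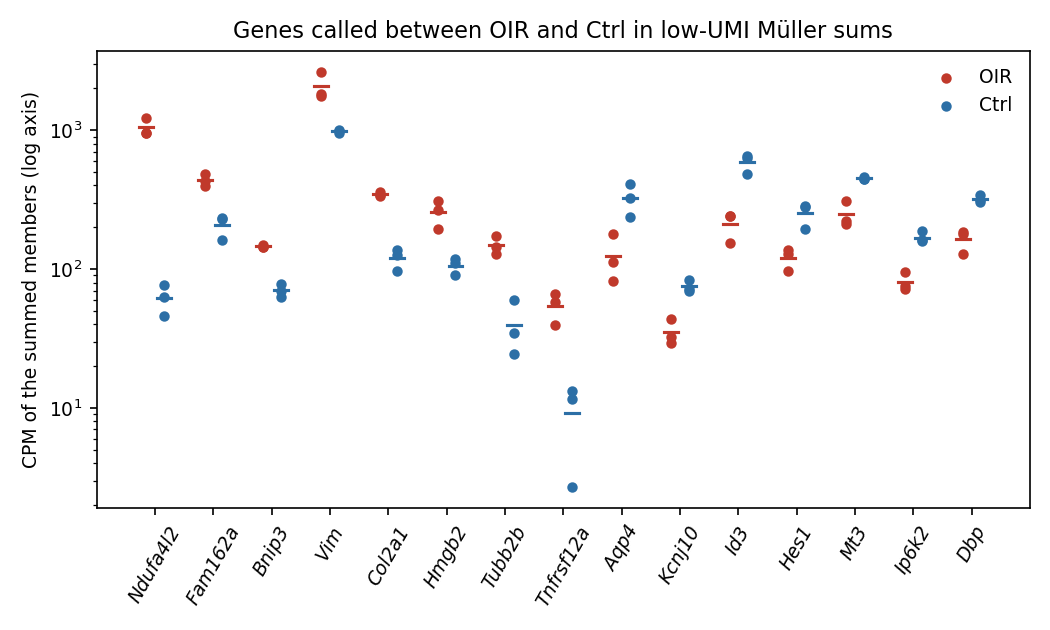
CPM of the summed members on a log axis (y axis) for 15 genes that differed between the groups (x axis), with 1 point for each sample, a line at the mean of 3, OIR in red and control in blue. The 3 points of a group lie apart from those of the other for each gene, most widely for Ndufa4l2 (957 to 1225 against 45.6 to 76.6 CPM).

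The gene with the lowest p was Ndufa4l2. It is also on the hypoxia list, of which Bnip3 passed as well, with the smallest log2 fold change of the 24 higher genes. Ndufa4l2, a hypoxia-induced relative of a cytochrome c oxidase subunit (chromosome 10, 127514967 to 127517154 on GRCm38), was 957, 1225 and 957 CPM in the OIR members. In the control members it was 62.8, 45.6 and 76.6 CPM. No sample of one group came near the other, and the log2 fold change was 4.02 ± 0.23 (SE, edgeR adjusted p = 1.27e-07). In Müller-dominated members the log2 fold change was 4.36 and in rod-dominated members 2.63, and it passed the test in both. Outside both Müller classes the kept barcodes held 138, 42.4 and 32.4 CPM of it in the OIR group and 27.5, 10.1 and 8.01 CPM in the control group. Bnip3, a mitochondrial receptor for mitophagy, was 144, 148 and 145 CPM against 62.8, 77.7 and 69.9 CPM (log2 fold change 1.00 ± 0.20 SE, edgeR adjusted p = 0.0359). Outside both Müller classes the kept barcodes held 234, 121 and 111 CPM of Bnip3 in OIR and 100, 61.9 and 65.4 CPM in control. Bnip3 kept its call in 6 of 18 alternatives.

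Of the list of Müller genes outside the rule, 1 of 19 passed as higher (Vim) and 4 as lower (Id3, Hes1, Aqp4 and Kcnj10), with a median log2 fold change of -0.33. Of 25 hypoxia and glycolysis genes tested, 2 (Ndufa4l2 and Bnip3) passed as higher and none as lower, beside 0.568% of all genes. Their median log2 fold change was 0.30, with 18 of 25 above 0, against -0.01 over all genes tested. Pgk1, a glycolytic kinase, stood at 761, 1059.5 and 745 CPM in OIR and 480, 501 and 536 CPM in control members, and did not pass (edgeR adjusted p = 0.185). Hk2, the hexokinase of photoreceptors, lay the other way, at 39.7, 28.9 and 21.9 against 71.7, 64.3 and 53.3 CPM (edgeR adjusted p = 0.119). Fam162a, a hypoxia-induced mitochondrial protein named here after its values were seen, was 396, 482 and 428 CPM against 161, 230.5 and 233 CPM (log2 fold change 1.01 ± 0.19 SE, edgeR adjusted p = 0.0232). Ddit4, an inhibitor of mTOR signalling that hypoxia also induces, was likewise named after its values were seen. It was lower in OIR, at 68.3, 88.0 and 72.2 against 224, 129 and 139.9 CPM (log2 fold change -1.23 ± 0.24 SE, edgeR adjusted p = 0.0265). Fam162a kept its call in 12 of 18 alternatives and Ddit4 in 7 of 18.

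The sequence before the start of Bnip3 and Fam162a is shown because both rose, as did Ndufa4l2, and hypoxia-inducible factors are known to bind the core letters ACGTG and GCGTG. Both strands were searched (CACGT and CACGC are the reverse complements, and CACGTG counts as 2 overlapping matches), and matches are in capitals. The 250 bases end at the transcription start and run 5′ to 3′ along the gene, from RefSeq on GRCm38.p6, minus strand. Bnip3 lies at chr7:138909507-138909756 with 5 matches and Fam162a at chr16:36071562-36071811 with 6.
Bnip3: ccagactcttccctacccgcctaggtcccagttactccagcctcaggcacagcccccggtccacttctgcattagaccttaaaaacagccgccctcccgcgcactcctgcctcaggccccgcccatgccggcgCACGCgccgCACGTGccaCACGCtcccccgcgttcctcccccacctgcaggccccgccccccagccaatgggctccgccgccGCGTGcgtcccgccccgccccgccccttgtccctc
Fam162a: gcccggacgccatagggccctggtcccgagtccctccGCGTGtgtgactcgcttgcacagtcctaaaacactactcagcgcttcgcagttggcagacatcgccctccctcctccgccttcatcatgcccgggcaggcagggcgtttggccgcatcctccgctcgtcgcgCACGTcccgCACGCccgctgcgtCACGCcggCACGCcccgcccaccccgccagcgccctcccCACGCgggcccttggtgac
Of 32851 such windows in the table, 12679 (38.6%) held at least 1 match and 332 (1.01%) at least 5. The number 5 is that of Bnip3, the lower of the 2 genes, and the windows were not matched for base content. No enrichment was tested. A match is a description of letters and not a site.

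Vim, Col2a1 and Tubb2b, genes of filaments, matrix and microtubules, were higher in OIR. Vim, the intermediate filament protein of Müller glia, was 1764, 2644 and 1812 CPM in OIR members and 948, 1010 and 992 CPM in control members. The groups were apart by more than their spread (log2 fold change 1.01 ± 0.21 SE, edgeR adjusted p = 0.0390). Vim kept its call in 10 of 18 alternatives and did not pass in Müller-dominated members (log2 fold change 0.99, edgeR adjusted p = 0.0805). Col2a1, a chain of type II collagen, was 360.1, 341 and 333 CPM against 126, 137 and 96.6 CPM (log2 fold change 1.44 ± 0.19 SE, edgeR adjusted p = 0.00307). Tubb2b, a beta-tubulin, was 144, 127 and 173 CPM against 24.3, 34.8 and 59.9 CPM (log2 fold change 1.95 ± 0.28 SE, edgeR adjusted p = 0.00418). Each of the 3 also had a log2 fold change above 0 in the high-UMI class, where none passed.

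Among 13 genes tested of a gliosis and STAT3 list Vim passed, beside 0.568% of all genes. The list's median log2 fold change was -0.17, against -0.01 over all genes, whereas its summed CPM was higher in every OIR sample (2644, 3483 and 2357 against 1925, 1461 and 1392), with Vim its most abundant gene. In the members 5 of 13 genes were above 0. In the high-UMI class 15 of 19 tested were above 0, with a median of 0.76, and none passed. S100a6, a calcium-binding protein, stood at 286, 299 and 154 against 132, 105 and 79.9 CPM without passing (edgeR adjusted p = 0.118). Gfap, the filament gene best known from gliosis, was scarce at 36.0, 27.6 and 10.1 CPM in the OIR group and 29.5, 0 and 9.99 CPM in the control group (edgeR adjusted p = 0.933).

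Further genes higher in OIR were Tnfrsf12a, Hmgb2, Egfl7, Nxph4, Tesc, Anxa2 and Sez6l, and all but Hmgb2 were at few UMIs in the control members. Tnfrsf12a, the receptor of the cytokine TWEAK, was 39.7, 65.6 and 57.6 CPM in the OIR members and 11.5, 2.68 and 13.3 CPM in the control members, from 145 and 14 UMIs. Hmgb2, a chromatin protein, was higher at 194, 267 and 310 against 110.2, 118 and 89.9 CPM (log2 fold change 1.18 ± 0.20 SE, edgeR adjusted p = 0.0194). It was higher by a like amount in kept barcodes outside both Müller classes, at 216, 267 and 352 against 99.9, 129 and 137 CPM. Egfl7, a secreted protein of endothelium, had 101 UMIs over the OIR and 6 over the control members. Nxph4, Tesc and Anxa2 had 141, 107 and 81 UMIs against 10, 7 and 7, and Sez6l 58 against 1. Each of these passed, and 7 of all 46 genes had fewer than 10 UMIs in 1 of the groups.

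Markers of endothelium were read for the whole list because of Egfl7. The 9 endothelial genes summed to 581, 549 and 498 CPM in the OIR and 589, 410.1 and 380 CPM in the control members (p = 0.4, exact permutation test), with Kdr the most abundant. Of 3 such genes tested Egfl7 passed, beside 0.568% of all genes, and Kdr and Flt1 did not (edgeR adjusted p = 0.854 and 0.960). All 9 genes were detected. The part of endothelial RNA in the Egfl7 difference was not tested.

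Aqp4 and Kcnj10, genes of water and potassium transport, were lower in OIR. Aqp4, the water channel of Müller endfeet, was 178, 113 and 82.2 CPM in OIR members and 409.9, 239 and 323 CPM in control members. The highest OIR sample stayed below the lowest control sample (log2 fold change -1.47 ± 0.28 SE, edgeR adjusted p = 0.0261). Kcnj10, the inward rectifier Kir4.1 that carries potassium out of Müller glia, was 32.3, 43.3 and 29.2 CPM against 83.3, 72.4 and 69.9 CPM (log2 fold change -1.21 ± 0.26 SE, edgeR adjusted p = 0.0483). Aqp4 kept its call in 12 of 18 alternatives and Kcnj10 in 6 of the 17 that tested it. Of 12 homeostasis genes tested outside the rule these 2 passed, both as lower, and 2 of 12 had a log2 fold change above 0 (median -0.37). Over all genes 0.272% passed as lower and 3984 of 8100 were above 0. Slc4a4 lay the other way, at 18.6, 19.7 and 31.1 against 7.69, 5.36 and 0 CPM from 64 and 8 UMIs, without passing (edgeR adjusted p = 0.148). Car2, a carbonic anhydrase, was 1550, 1872 and 1807 against 2064, 2158 and 2295 CPM without passing (edgeR adjusted p = 0.617).

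The transcription regulators Id3 and Hes1 were lower as well. Id3, an inhibitor of basic helix-loop-helix factors (chromosome 4, 136143497 to 136145755 on GRCm38), was 155, 242 and 240.3 CPM in the OIR members and 634, 479.8 and 649 CPM in the control members. The groups did not overlap (log2 fold change -1.55 ± 0.20 SE, edgeR adjusted p = 0.00274). Its log2 fold change was -1.60 in Müller-dominated and -1.83 in rod-dominated members. Hes1, a repressor downstream of Notch, was 128, 97.2 and 137 CPM against 284, 196 and 279.8 CPM (log2 fold change -1.14 ± 0.20 SE, edgeR adjusted p = 0.0222). Of 22 genes tested on the list of glial and retinal transcription factors and Notch these 2 passed, and 1 of 22 had a log2 fold change above 0 (median -0.39), beside 3984 of all 8100 genes above 0 and 0.568% called. Id1 stood at 119, 140.5 and 137 against 211, 147 and 206 CPM and did not pass (edgeR adjusted p = 0.290).

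Several of the lower genes were low in rod-dominated members. Faim, an inhibitor of Fas-induced death, was 63.3, 56.5 and 62.1 CPM in OIR and 117, 182 and 133 CPM in control members (log2 fold change -1.30 ± 0.22 SE, edgeR adjusted p = 0.0180). Its log2 fold change was -0.09 in Müller-dominated and -1.83 in rod-dominated members. Kept barcodes outside both Müller classes held 68.5, 59.1 and 62.2 CPM of Faim in OIR and 114, 179 and 207 CPM in control. Kcnj14, an inward rectifier potassium channel, was 43.5, 19.7 and 7.31 CPM against 115, 99.2 and 103 CPM. In kept barcodes outside both Müller classes it was also lower in every OIR sample, at 50.6, 21.8 and 20.3 against 76.8, 156 and 205 CPM. Kcnj14, Pdzph1 and Mef2c, a transcription factor, were too scarce to be tested in Müller-dominated members and had log2 fold changes of -2.49, -1.85 and -2.07 in rod-dominated ones. Of the 46 genes, 33 of 40 tested kept their call in Müller-dominated and 9 of 27 in rod-dominated members. These are parts of the sums that made the calls. Outside both Müller classes Pdzph1 was also lower, at 26.6, 35.2 and 35.9 against 53.9, 147 and 159 CPM. Mef2c was lower there too, at 47.3, 38.1 and 46.0 against 73.1, 80.6 and 78.2 CPM. Not every called gene lay apart in those barcodes, since Id3, Vim and Aqp4 overlapped between the groups.

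Further genes lower in OIR were Fam159b, BC055402, Ip6k2 and Dbp. Fam159b was 6.21, 15.8 and 5.48 CPM in the OIR and 78.1, 59.0 and 103 CPM in the control members, and BC055402 was 3.73, 7.88 and 1.83 against 82.0, 64.3 and 19.98 CPM. The groups did not overlap for either, with log2 fold changes of -3.23 ± 0.37 SE (edgeR adjusted p = 0.00106) and -3.87 ± 0.53 SE (edgeR adjusted p = 0.00331). Ip6k2, an inositol phosphate kinase, was 75.7, 95.8 and 71.3 against 159, 161 and 187 CPM. It was also lower in kept barcodes outside both Müller classes, at 121, 223 and 112 against 232, 313 and 358 CPM. Dbp, a transcription factor of the circadian clock, was 180.0, 127 and 186 against 339, 306 and 313 CPM (log2 fold change -1.03 ± 0.19 SE, edgeR adjusted p = 0.0222). The labels give no time of day.

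In 3 further lists 1 gene each passed, beside 0.568% of all genes. Of the metallothionein and antioxidant genes 18 were tested, and Mt3, a metallothionein of neural tissue, passed as lower. It was 224, 309 and 211 CPM in the OIR members and 447, 464 and 443 CPM in the control members, without overlap (log2 fold change -0.94 ± 0.19 SE, edgeR adjusted p = 0.0367). The list as a whole had a median log2 fold change of -0.09. Of 13 mitochondrial genes mt-Nd4l passed as lower, at 328, 209 and 244 against 475, 479.8 and 479.6 CPM (edgeR adjusted p = 0.0483). It was also lower in kept barcodes outside both Müller classes, at 202, 115 and 146 against 304, 259 and 266 CPM. Of the 13, 1 had a log2 fold change above 0, beside 3984 of all 8100 genes. Mt3 and mt-Nd4l passed in rod-dominated members and not in Müller-dominated ones (edgeR adjusted p = 0.0609 and 0.214). Each kept its call in 9 of 18 alternatives. Of 15 matrix and growth factor genes Igfbp5, a binding protein of insulin-like growth factors, passed as higher at 64.6, 72.2 and 47.5 against 14.1, 21.4 and 16.7 CPM (edgeR adjusted p = 0.0232). That list's median log2 fold change was -0.06, while its sum was higher in every OIR sample, at 6254, 7633 and 4996 against 4076, 4784 and 3913 CPM, with Sparc the most abundant.

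Interferon response genes were higher in OIR as values, and none passed. All 14 tested of the 21 listed had a log2 fold change above 0, with a median of 0.75, beside 3984 of all 8100 genes and a median of -0.01. A gene was tested once it was abundant enough in 3 samples, so a scarce gene could enter through the OIR samples alone. The sign of such a gene was set by that filter, so the count of 14 is a description only. In the high-UMI class 21 of 21 were above 0, with a median of 1.29. In the members the list summed to 923, 511 and 587 CPM in OIR and 402, 332 and 303 CPM in control members (p = 0.1, exact permutation test, the smallest possible). Isg15, a ubiquitin-like protein induced by interferon, had 44 UMIs over the OIR members and 2 over the control members (edgeR adjusted p = 0.0908). It entered the test through the OIR samples alone, at 19.9, 13.1 and 16.4 against 0, 5.36 and 0 CPM. Nuclear-retained RNA lay the other way as values, with none of 7 genes passing, 2 of 7 above 0 and a median log2 fold change of -0.72. Malat1 stood at 36144, 26533 and 36702 CPM in OIR and 49192, 51312 and 64132 CPM in control members, without overlap and without passing (log2 fold change -0.79 ± 0.31 SE, edgeR adjusted p = 0.478).

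None of the 15 rod, 5 cone, 7 bipolar, 6 microglia, 2 mural, 4 astrocyte, 5 pigment epithelium or 25 immediate early genes tested passed in either direction, beside 0.568% of all genes, nor did the 17 lipoprotein and cholesterol or 81 ribosomal protein genes. Of 91 nuclear-encoded respiratory chain genes taken by symbol, Ndufa4l2 alone passed. Rod genes had a median log2 fold change of -0.32, with Gnat1, the rod transducin, at 1023, 758 and 862 against 1184, 1831 and 1412 CPM (edgeR adjusted p = 0.148). Myh11 and Cspg4, markers of mural cells, were listed at 0 in the members, and so were Onecut1 of horizontal cells and S100a9 of neutrophils. No amacrine or horizontal gene was abundant enough to be tested. Hbb-bs, a blood haemoglobin and the 1 gene tested of the lens and blood list, did not pass, and was 201 CPM in control replicate 1 and 4.57 to 26.6 CPM in the other samples.

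In the high-UMI class the same comparison called no gene of 12928 tested with edgeR, the lowest adjusted p being 0.120 and 931 genes having an unadjusted p under 0.05. It used the same samples, so it is no independent test of the members. Of the 46 genes called in the members, 45 had the same direction there and 39 a smaller size. Ndufa4l2 was 1180, 655 and 695 CPM in the OIR and 76.6, 84.2 and 105 CPM in the control high-UMI class (log2 fold change 3.20 ± 0.32 SE, adjusted p = 0.120). Igfbp5 was the exception in direction, with log2 fold changes of 1.78 in the members and -0.06 in the high-UMI class.

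The difference of the OIR effect between the classes was tested in 1 model with the sample as a block. No gene of 10917 passed with edgeR, the lowest adjusted p being 0.389, and 333 had an unadjusted p under 0.05. Fn1, fibronectin, had the lowest p, with 74.5, 51.2 and 50.3 CPM in OIR members against 12.8, 13.4 and 0 CPM in control members. In the high-UMI class it was 152, 65.8 and 101 against 154, 55.3 and 17.3 CPM, where the groups overlapped. Its OIR effect differed by 2.36 ± 0.44 SE on the log2 scale (edgeR adjusted p = 0.389). Gng3 and Scg2 followed with differences of 2.39 and 1.69, and Zfp36, Fam84b and Gfra2 led the other direction with differences of -1.65 to -2.29 (edgeR adjusted p from 0.389 to 0.895).

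**Figure D5:**
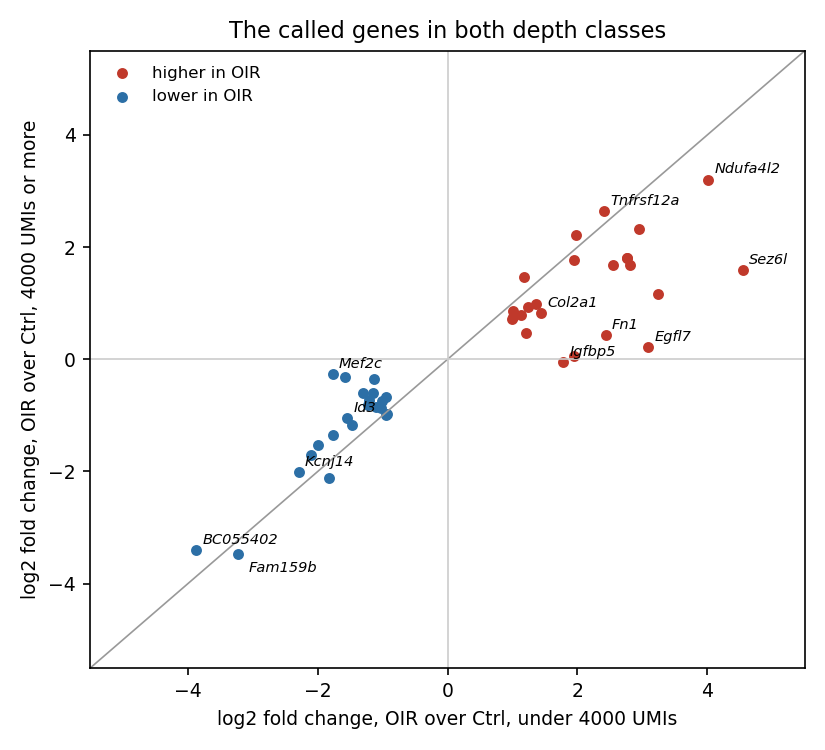
log2 fold change of OIR over control for the 46 called genes, under 4000 UMIs (x axis) and at 4000 UMIs or more (y axis), with genes higher in OIR in red, lower in blue and the line of equality in gray. Of the 46 genes 45 share a direction and 39 are smaller in the high-UMI class, where none passed the test. The genes were chosen by the x axis.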

How the data were processed

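The authors deposited raw UMI counts, whole numbers for 31053 mouse genes in each barcode, from 10x Genomics v3 libraries. Per the labels the build was mm10, per the file headers the matrix software was version 3.1.0, and the methods name a human build. Members were found by the rule, and their counts summed per sample. edgeR 4.0.16 (R 4.3.3, TMM, filterByExpr, quasi-likelihood test) compared 3 OIR with 3 control sums without covariates, and Benjamini-Hochberg adjustment ran over all genes tested. Single values were compared by exact permutation tests (SciPy 1.17.1, Python 3.11.15). The study calls the samples of a group biological replicates, each from 2 mice.

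Named are, in each direction, the 10 called genes with the lowest p among those without overlap, the rule's genes and Vim, up to 4 genes a list by p, and 3 interaction genes a direction, with exceptions stated. Members and lists were chosen with earlier results of these data known. Alternatives were DESeq2 1.42.0, no filter, left-out samples, replicates 2 and 3 alone, a replicate block, a sex term, other limits for members, and members by rod RNA. Rod-dominated members and no mitochondrial limit were added after the data were seen. No doublet caller was run, and Wilson intervals cover counting error only. Gene positions are from GENCODE, and 2 of 3 symbols (Bnip3 and Fam162a, not Ndufa4l2) matched the RefSeq promoter table.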

Additional observations from a re-analysis of the deposited data

How the results depend on the processing

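The 46 genes called between OIR and control in the members became 198 without a filter on low counts, 164 with a sex term, 144 in replicates 2 and 3 alone, 107 with a replicate block, 24 under a limit of 3000 UMIs, 23 under a mitochondrial limit of 10% and 10 in rod-dominated members. Leaving out 1 sample gave 6 (without OIR replicate 2) to 104 (without control replicate 1). The replicate block kept all 24 higher and 22 lower genes. Deviations of equally numbered samples correlated at 0.252, -0.0159 and 0.213 in member sums, so the numbers were not taken as pairs, although over all kept barcodes they correlated at 0.624, 0.388 and 0.477. DESeq2 called 44, 36 of them shared.

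In the high-UMI class the count was 0, from 0 to 5 with 1 sample left out (5 without control replicate 1, 2 without OIR replicate 1), and 0 with the replicate block. For the difference between classes it was 0, from 0 to 3 with 1 sample left out (3 without control replicate 3), and 1 in replicates 2 and 3 alone. Of 788 fits of single called genes under 18 alternatives, 501 kept the call, 287 lost it and 0 changed direction. The differences of the single values kept their sign in all 56 alternatives, but with 1 sample left out that in mitochondrial RNA ran from -3.09 to -0.11 percentage points and that in the share of Müller barcodes under 4000 UMIs from 1.40 to 16.5. None could pass a threshold of 0.05 with 3 samples against 3. The causes of these changes were not tested. With 175 to 622 members a sample, a gene of a few CPM rests on a few UMIs.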

Other observations

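The mitochondrial limit removed barcodes unevenly. Another 331 barcodes met the rest of the rule and had more than 20% mitochondrial RNA, 112, 13 and 22 of them in the OIR samples and 154, 13 and 17 in the control samples. They were 23.5% and 29.4% of such barcodes in the replicate 1 samples and 2.91% to 8.85% in the others. With them included, the share of barcodes with at least 500 genes was 7.27%, 7.90% and 8.51% in the OIR group and 6.45%, 3.64% and 2.71% in the control group, still without overlap (p = 0.1, exact permutation test, the smallest possible).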
